A study of Sus scrofa with 6 samples.

Results

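Insulin signalling through AKT and mTOR was examined in the long back muscle, longissimus dorsi, of 25-day-old male piglets of 2 pig breeds. The genes were INSR, IRS1, PIK3R1, AKT1, AKT2, FOXO1, FOXO3, MTOR, RPS6KB1 and EIF4EBP1. Probe sets were taken where the deposited annotation gave one of these 10 symbols, or where a placeholder symbol came with a title that named the protein. This gave 6 of the 10 genes, out of 6292 genes named on the array, with 12 of the 23999 probe sets left after removal of the AFFX controls. PIK3R1 was found through its title alone, and IRS1, AKT1, AKT2 and MTOR had no probe set under these criteria. The study used Affymetrix porcine arrays, 1 per animal, on 3 Shaziling piglets (an indigenous Chinese breed; replicates 4, 5 and 6) and 3 Yorkshire piglets (a lean commercial breed; replicates 1, 2 and 3). All 6 animals were untreated as far as the labels say. Those of a breed were full siblings from a single farm, a different one for each breed, so the effects of breed, family and farm cannot be told apart here, and every p-value measures the spread between siblings.

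Insulin binds its receptor tyrosine kinase INSR, which phosphorylates the docking protein IRS1. IRS1 recruits PI3-kinase through the regulatory subunit encoded by PIK3R1, and the lipid product of that kinase activates AKT. AKT keeps the transcription factors FOXO1 and FOXO3 out of the nucleus and, through mTOR, leads to phosphorylation of the S6 kinase RPS6KB1 and of the translation repressor EIF4EBP1. In skeletal muscle this chain promotes glucose uptake and protein synthesis, while active FOXO factors raise genes of protein breakdown. The arrays measured mRNA and not phosphorylation, which carries the signal along most of these steps.

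For none of the 6 member genes that could be tested was a breed difference detected beyond the spread between siblings. Of the 12 probe sets, 6 had a Present detection call on at least 3 of the 6 arrays and were tested, 1 for each of the 6 genes. In the limma model over all 14413 tested probe sets, 0 of these 6 passed an adjusted p of 0.05, where 0.215% of all tested probe sets passed (0.0971% higher and 0.118% lower in Shaziling). Likewise, 0 of 6 had an unadjusted p under 0.05, against 10.4% of all. Without Yorkshire replicate 1 this count was 1 (FOXO1), against 7.08% of all. Without Yorkshire replicate 2 it was also 1 (EIF4EBP1), against 11.4% of all. Signals of the breeds overlapped for all 6, while they did not overlap for 16.3% of all tested probe sets. The largest differences were for FOXO1, 1.53-fold lower in Shaziling, PIK3R1, 1.42-fold lower, and INSR, 1.31-fold higher, and the adjusted p-values of the 6 lay between 0.55 and 0.954. In 4 of the 6 the difference was negative, with a median of -0.23 on the log2 scale, against -0.04 over all tested probe sets. That median turned on single arrays: it was 0.05 without Yorkshire replicate 2, with 3 of the 6 negative, -0.05 without Shaziling replicate 4 and -0.52 without Yorkshire replicate 3. As ratios of Shaziling to Yorkshire, the lowest end of any of the 6 separate 95% intervals was 0.394, for PIK3R1, and the highest was 2.70, for INSR.

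Present calls covered 56.3% to 59.9% of probe sets other than AFFX controls on the Shaziling arrays and 58.2% to 60.6% on the Yorkshire arrays. Of 11 marker genes of skeletal muscle fibres, 10 had a probe set, and all 10 were Present on every array. In whole muscle, a lower signal from fewer cells of a type and one from less RNA per cell cannot be told apart.

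INSR encodes the insulin receptor, and its tested probe set was Present on 5 of the 6 arrays. Its log2 signals were 6.46, 6.28 and 5.01 in Shaziling replicates 4, 5 and 6, against 5.47, 5.28 and 5.84 in Yorkshire replicates 1, 2 and 3. Shaziling held both the 2 highest signals and the lowest one, the last with a Marginal call. The means were 5.92 ± 0.79 in Shaziling and 5.53 ± 0.29 in Yorkshire (log2, SD, n = 3 each), a log2 difference of 0.39 (SE 0.46, 95% interval -0.66 to 1.43, limma adjusted p = 0.814). The difference was 0.84 without Shaziling replicate 6 (limma adjusted p = 0.692), 0.21 without Shaziling replicate 5 and 0.12 without Shaziling replicate 4 (limma adjusted p = 0.939). The file aligned it at 50619054 to 50631949 of chromosome 2, with an identity of 98.83%; the genome build of these positions is not readable in the file.

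PIK3R1, the gene of the PI3-kinase regulatory subunit, was Present on every array. Signals were 9.95, 10.89 and 10.41 in Shaziling replicates 4, 5 and 6, against 10.71, 11.75 and 10.31 in Yorkshire replicates 1, 2 and 3. Yorkshire replicate 2 stood above the other 5 arrays, which were intermixed. The means were 10.42 ± 0.47 in Shaziling and 10.92 ± 0.74 in Yorkshire (SD, n = 3 each), with a log2 difference of -0.51 (SE 0.37, 95% interval -1.34 to 0.33, limma adjusted p = 0.686). The difference was -0.10 without Yorkshire replicate 2 (SE 0.29, limma adjusted p = 0.919) and -0.81 without Yorkshire replicate 3 (SE 0.36, limma adjusted p = 0.524). A second probe set, Present on Yorkshire replicate 2 alone, had signals of 5.36, 7.72 and 6.75 in Shaziling, against 6.77, 7.87 and 6.99 in Yorkshire. Its lowest and highest arrays were the same as those of the first, but 4 of its 6 calls were Absent and 1 was Marginal, so it gives no measured breed difference. The file aligned the first at 44113561 to 44114502 of chromosome 16 with an identity of 100%, and the second beside it, at 44114529 to 44119258, with 74.72%.

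**Figure D1:**
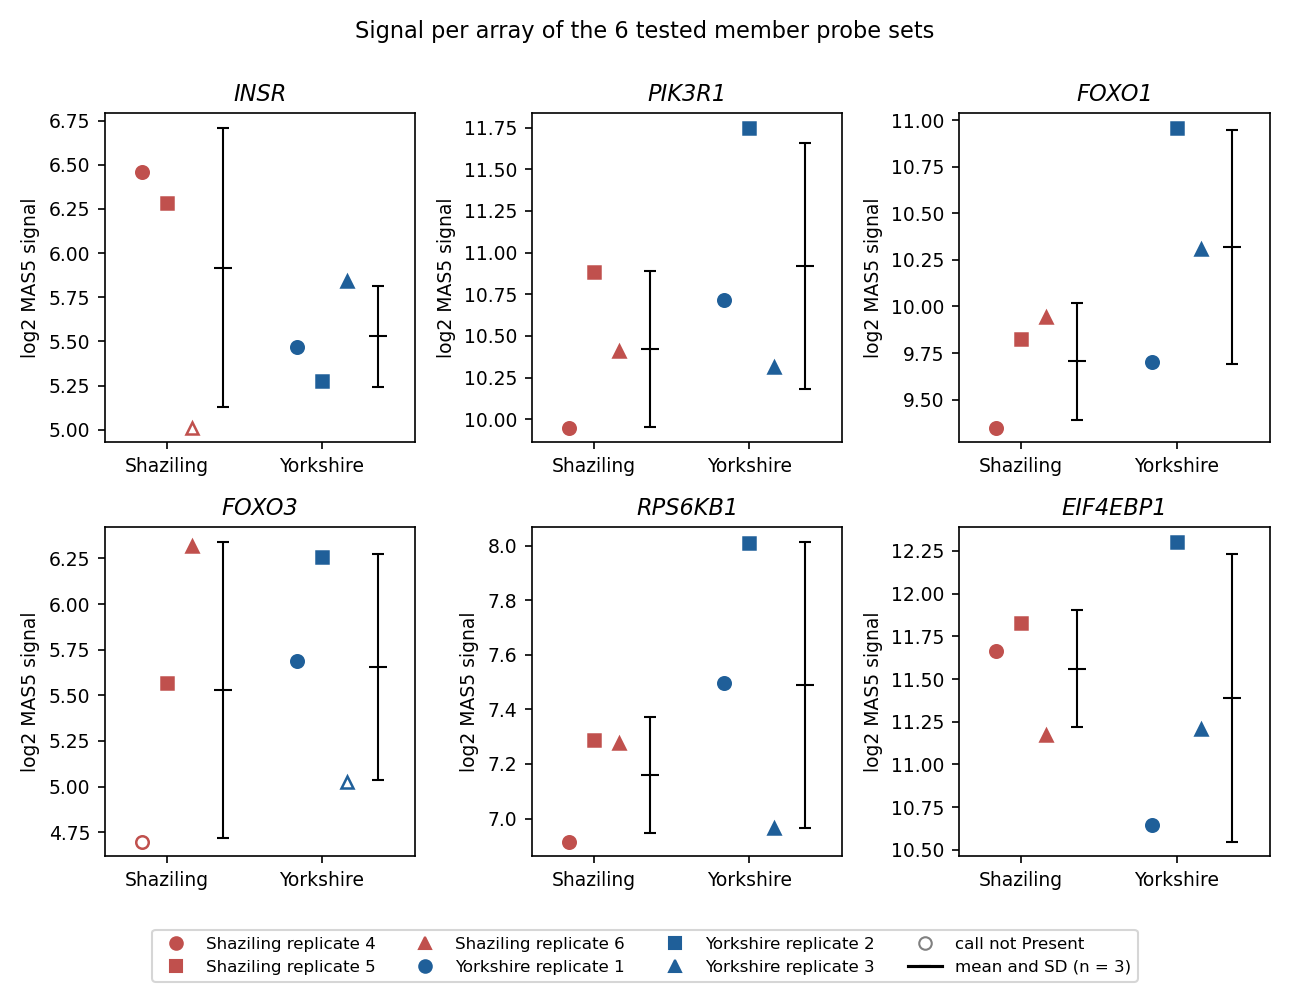
The log2 MAS5 signal of each array for the 6 tested member probe sets, with Shaziling (red) left of Yorkshire (blue), 1 marker shape per replicate, open markers for calls other than Present, and the mean with its SD (n = 3) in black. The breeds overlap in every panel, and Yorkshire replicate 2 (blue square) is the highest of the 6 arrays for PIK3R1, FOXO1, RPS6KB1 and EIF4EBP1.

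FOXO1, a transcription factor that raises genes of protein breakdown and of fat use in muscle, had the smallest p of the members. Its signals were 9.35, 9.83 and 9.94 in Shaziling replicates 4, 5 and 6, against 9.70, 10.96 and 10.31 in Yorkshire replicates 1, 2 and 3. The top 2 arrays were both Yorkshire, but Yorkshire replicate 1 lay below 2 Shaziling arrays. The means were 9.71 ± 0.31 in Shaziling and 10.32 ± 0.63 in Yorkshire (SD, n = 3 each), with a log2 difference of -0.62 (SE 0.32, 95% interval -1.34 to 0.11, limma adjusted p = 0.55). The difference was -0.30 without Yorkshire replicate 2 (limma adjusted p = 0.713) and -0.93 without Yorkshire replicate 1 (limma adjusted p = 0.591). The alignment of this probe set, on chromosome 11 from 15079672 to 15081585, had an identity of only 56.46%, although its design sequence was the pig FOXO1 mRNA. A second FOXO1 probe set was Absent on all 6 arrays, with signals of 5.21, 5.32 and 5.96 in Shaziling, against 5.76, 4.93 and 2.64 in Yorkshire. Its mean was higher in Shaziling, the other way from the first, but without a Present call it gives no measured breed difference.

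Over the 6 arrays, the profile of FOXO1 was most like those of POLR2I, a subunit of RNA polymerase II, C12H17orf80 and CLUAP1, a protein of ciliary transport. The root mean square difference between centred log2 profiles was 0.161, 0.186 and 0.189 for these genes, against a median of 0.582 over the 4540 other named genes tested. They were picked as the nearest of all candidates over 6 arrays that every gene shares, which is a description only.

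FOXO3 is the sister factor of FOXO1, with overlapping targets. Its tested probe set, on chromosome 1 from 78349458 to 78350790, had signals of 4.70, 5.57 and 6.32 in Shaziling replicates 4, 5 and 6, against 5.69, 6.26 and 5.02 in Yorkshire replicates 1, 2 and 3. Each breed had 1 Absent call, on Shaziling replicate 4 and Yorkshire replicate 3, its lowest arrays. The means of 5.53 ± 0.81 in Shaziling and 5.66 ± 0.62 in Yorkshire (SD, n = 3 each) gave a log2 difference of -0.13 (SE 0.52, 95% interval -1.30 to 1.05, limma adjusted p = 0.954). The sign was not stable: leaving out Shaziling replicate 4 gave 0.29 and leaving out Shaziling replicate 6 gave -0.52, while it was 0.17 without Yorkshire replicate 2.

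The other 2 FOXO3 probe sets aligned to overlapping stretches on opposite strands and were Absent on all arrays. One of them, at 78331013 to 78331741 of chromosome 1, had signals of 6.29, 6.04 and 6.42 in Shaziling replicates 4, 5 and 6, against 3.27, 3.63 and 5.70 in Yorkshire replicates 1, 2 and 3. It was the only one of the 12 probe sets in which the breeds did not overlap, with a difference of means of 2.05 on the log2 scale. Among all tested probe sets 16.3% did not overlap, and the share among those Absent on all arrays was not computed. No array had a Present or Marginal call for this probe set, so its values give no measured level in either breed. With no filter on calls, limma gave it an adjusted p of 0.429. The third FOXO3 probe set ranged from 2.81 to 4.02 in Shaziling and from 0.29 to 5.76 in Yorkshire.

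**Figure D2:**
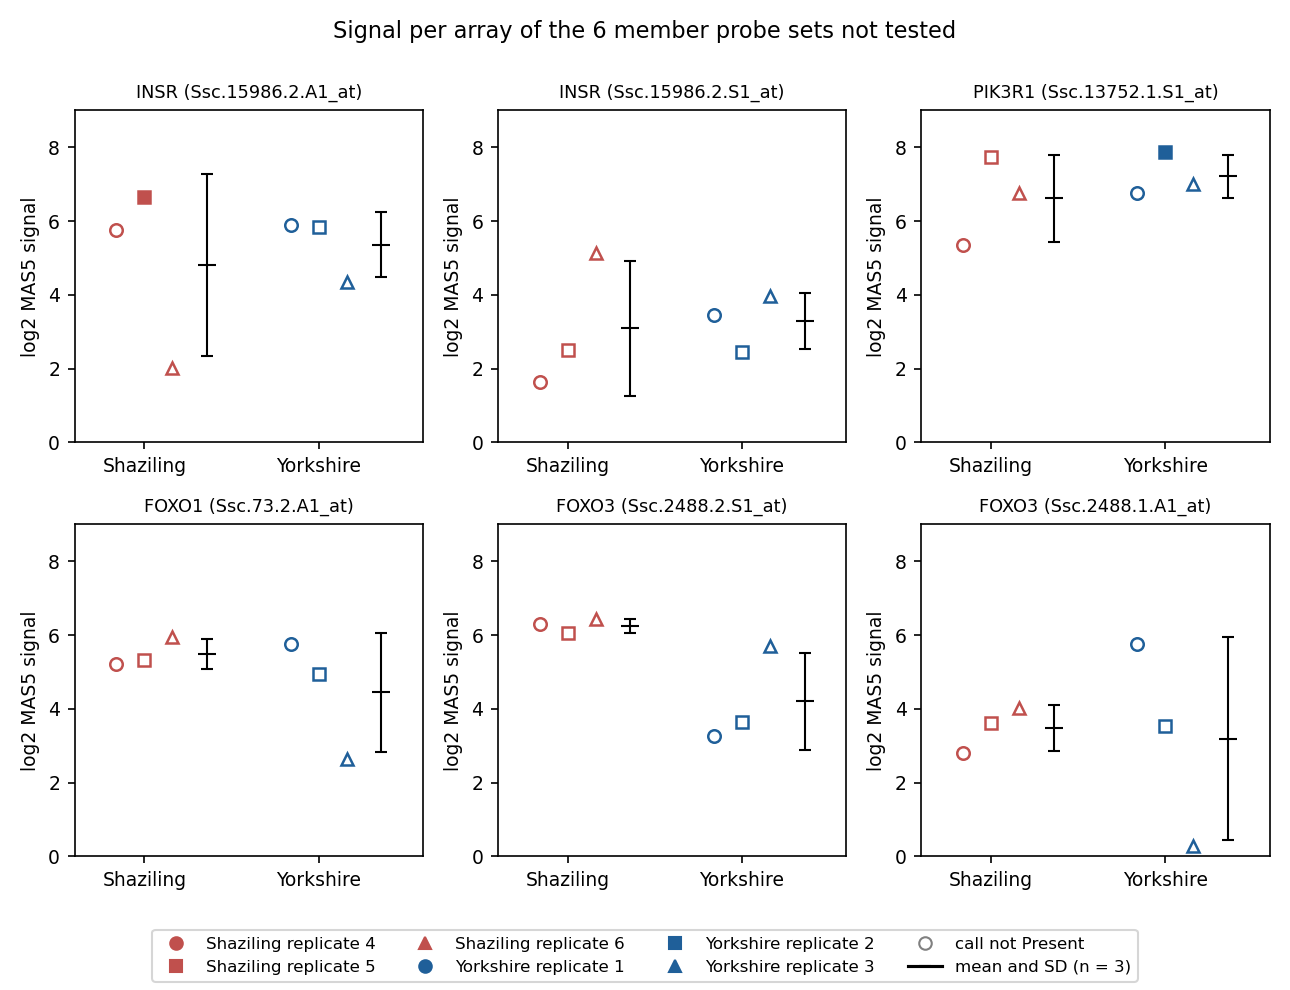
The log2 MAS5 signal of each array for the 6 member probe sets that were not tested, with Shaziling left of Yorkshire, filled markers for Present calls, open markers for other calls, and the mean with its SD (n = 3) in black. Only 2 of the calls are Present, and 1 FOXO3 probe set has its 3 Shaziling signals above its 3 Yorkshire signals with every call Absent.

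Of the 6 untested probe sets, 4 were Absent on every array and 2 were Present on 1 array. The 2 further INSR probe sets share a design sequence and an alignment on opposite strands. One was Present on Shaziling replicate 5 alone, with signals of 5.76, 6.66 and 2.02 in Shaziling, against 5.89, 5.83 and 4.35 in Yorkshire. The other was Absent on all arrays, between 1.63 and 5.13 in Shaziling and between 2.45 and 3.96 in Yorkshire.

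The mTOR arm ends in 2 members, and both were Present on all arrays. RPS6KB1, the S6 kinase that mTOR activates, had signals of 6.92, 7.29 and 7.28 in Shaziling replicates 4, 5 and 6, against 7.50, 8.01 and 6.96 in Yorkshire replicates 1, 2 and 3. The Shaziling arrays lay within 0.37 of one another, and Yorkshire spanned 1.05, reaching both above and close to the bottom of them. The log2 difference was -0.33 (SE 0.32, 95% interval -1.04 to 0.38, limma adjusted p = 0.762), from means of 7.16 ± 0.21 in Shaziling and 7.49 ± 0.52 in Yorkshire (SD, n = 3 each). It was -0.07 without Yorkshire replicate 2 and -0.59 without Yorkshire replicate 3. The file aligned it at 34280504 to 34293823 of chromosome 12, with an identity of 99.77%.

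EIF4EBP1, which holds back cap-dependent translation until mTOR phosphorylates it, had signals of 11.67, 11.83 and 11.17 in Shaziling replicates 4, 5 and 6, against 10.65, 12.30 and 11.21 in Yorkshire replicates 1, 2 and 3. The range among siblings was 1.58-fold in Shaziling and 3.15-fold in Yorkshire, which held both the highest and the lowest array. The means were 11.56 ± 0.34 in Shaziling and 11.39 ± 0.84 in Yorkshire (SD, n = 3 each), with a log2 difference of 0.17 (SE 0.38, 95% interval -0.68 to 1.02, limma adjusted p = 0.913). It was 0.63 without Yorkshire replicate 2 (SE 0.26, limma adjusted p = 0.425) and -0.20 without Yorkshire replicate 1 (limma adjusted p = 0.921), so the sign turned with 1 array of this breed and the size with another. Its file entry had no alignment.

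Among probe sets with no gene symbol, 5 had a sequence cluster title that compared them with 1 of the missing members. They were picked after the values were seen and do not belong to the 12. For mTOR the title named the human FK506 binding protein 12-rapamycin associated protein, an older name of the kinase. Its signals were 9.56, 8.83 and 9.13 in Shaziling replicates 4, 5 and 6, against 9.02, 9.95 and 9.02 in Yorkshire replicates 1, 2 and 3, Present throughout. The log2 difference was -0.16 (SE 0.31, 95% interval -0.86 to 0.55, limma adjusted p = 0.90). It was 0.15 without Yorkshire replicate 2 and -0.35 without Shaziling replicate 4.

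Of 2 probe sets compared with mouse Akt1, the kinase at the centre of the chain, 1 was Present on all arrays. The other had 4 Absent and 2 Marginal calls, and aligned on chromosome 6 with an identity of only 38.66%. The Present one had no alignment in its file entry, so its name rests on the title alone. Its signals were 9.63, 8.70 and 9.15 in Shaziling replicates 4, 5 and 6, against 9.19, 9.57 and 9.80 in Yorkshire replicates 1, 2 and 3. The breeds overlapped, with means of 9.16 ± 0.46 in Shaziling and 9.52 ± 0.31 in Yorkshire (SD, n = 3 each). The log2 difference was -0.36 (SE 0.28, 95% interval -0.999 to 0.28, limma adjusted p = 0.709). It was -0.59 without Shaziling replicate 4 and -0.13 without Shaziling replicate 5.

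Of 2 probe sets compared with human IRS1, 1 was Present on all arrays and the other Absent on all. The brighter had signals of 11.09, 11.28 and 10.84 in Shaziling replicates 4, 5 and 6, against 10.48, 11.45 and 10.35 in Yorkshire replicates 1, 2 and 3. All 3 Shaziling arrays lay above Yorkshire replicates 1 and 3 and below Yorkshire replicate 2. The log2 difference was 0.31 (SE 0.29, 95% interval -0.35 to 0.98, limma adjusted p = 0.758). It was 0.66 without Yorkshire replicate 2 (SE 0.20, limma adjusted p = 0.306), 0.17 without Yorkshire replicate 1 and 0.11 without Yorkshire replicate 3.

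**Figure D3:**
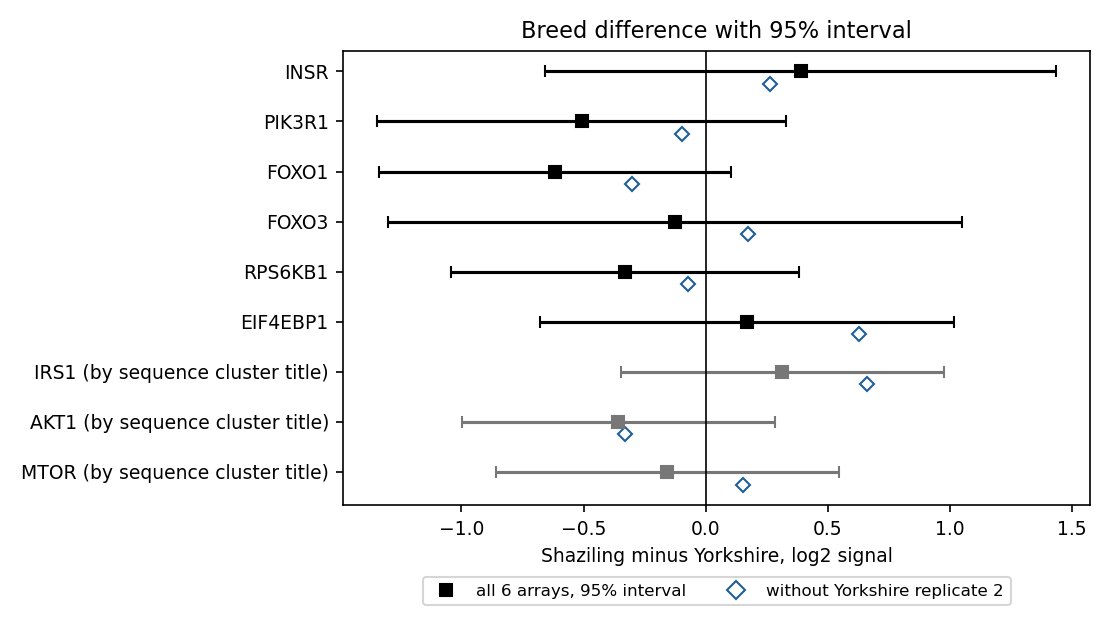
The difference of log2 signal, Shaziling minus Yorkshire, for the 6 tested members (black) and the 3 probe sets named by their cluster titles (grey), with 95% limma intervals as bars and the difference without Yorkshire replicate 2 as open diamonds. Every interval crosses 0, and the diamonds lie to the right of the main estimates for 8 of the 9 probe sets, INSR being the exception. A diamond must lie to the right wherever that array was above the Yorkshire mean.

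The members varied more between siblings than most probe sets did. The residual SD within breeds was between 0.40 and 0.72 on the log2 scale for the 6 tested members, all 6 above the median of 0.34 over all tested probe sets. For PIK3R1, FOXO1 and EIF4EBP1 it was 0.62, 0.50 and 0.64, against a median of 0.25 among tested probe sets in the same range of mean signal. INSR and FOXO3 had 0.59 and 0.72, against 0.47 in their range of signal. RPS6KB1 was the steadiest member, at 0.40, against 0.36 in its range. Those named by their cluster titles had 0.45 for IRS1, 0.39 for AKT1 and 0.46 for MTOR.

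One Yorkshire array stood out in these profiles and was singled out after the values were seen, so its counts are a description only. With 1 array per animal, the animal and the array cannot be told apart. Yorkshire replicate 2 was the highest of the 6 arrays in 4 of the 6 tested members. It was so in 2 of the 3 probe sets named by cluster title. Over all tested probe sets it was the highest in 23.8%, the largest such share of any array. Its median deviation from the mean of the 6 arrays was 0.76 over the 6 members, against 0.05 over all tested probe sets. INSR was the exception, with its lowest Yorkshire signal on that array. Shaziling replicate 4 was the lowest array in 4 of the 6 members, against 14.3% of all tested probe sets, but in 0 of the 3 named by cluster title, which all lay above their mean there. The members share these animals and are not independent replicates of the pattern.

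**Figure D4:**
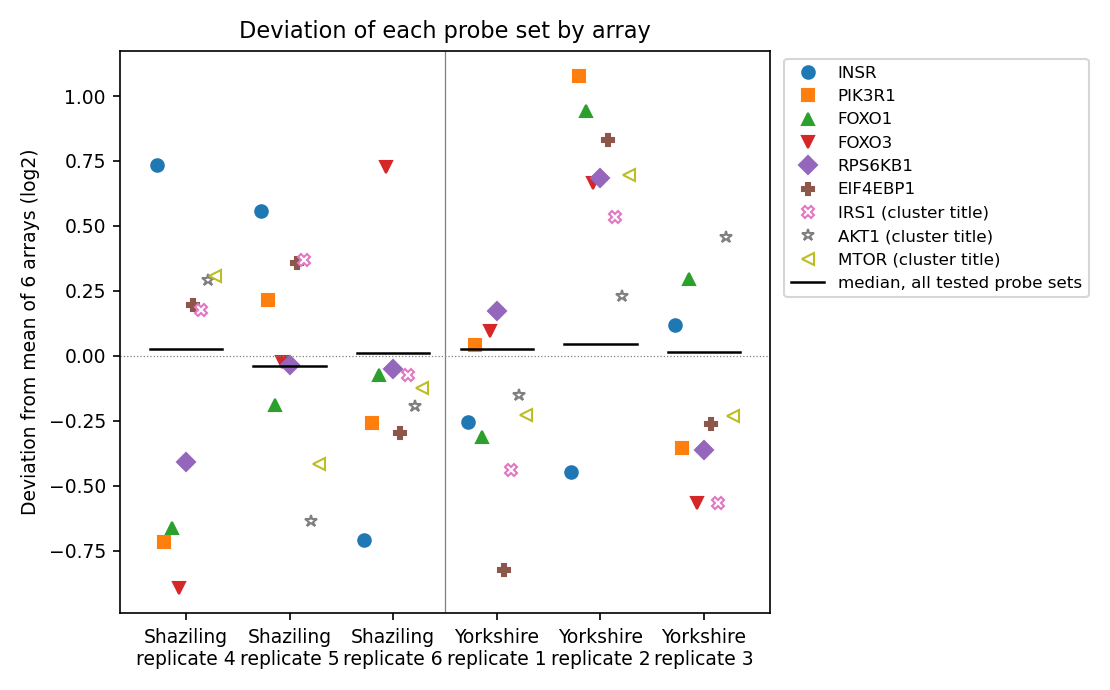
The deviation of each probe set from its own mean over the 6 arrays (log2), by array, with Shaziling left of Yorkshire, filled markers for the 6 tested members, open markers for the 3 probe sets named by cluster title, and a black bar for the median of all tested probe sets. In Yorkshire replicate 2, 8 of the 9 lie above their mean, with INSR below it, while the bars stay close to 0.

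Summed signals of marker genes went the other way in Yorkshire replicate 2, which was the lowest of the 6 arrays in 5 of 7 marker lists. Taken singly, 17.75% of all tested probe sets had their lowest signal on that array. This share is of single probe sets and the marker count is of sums, so it is not a matching baseline. The 10 tested muscle fibre genes summed to 17.98 to 18.16 (log2) in Shaziling and 17.74 to 18.07 in Yorkshire, with 17.74 in replicate 2. The 5 tested macrophage and leukocyte genes summed to 10.5 to 10.87 in Shaziling and 9.66 to 10.62 in Yorkshire, with 9.66 on that array. The T cell gene CD3E was Present on no array. Of 36 tested marker genes, only LYZ, the lysozyme gene of macrophages, passed the limma threshold (difference 2.05, adjusted p = 0.0425). Over all tested probe sets 0.215% passed, and LYZ is named after its value was seen. Among the other lists, 5 endothelial genes summed to 11.96 to 12.82 in Shaziling and 11.88 to 12.95 in Yorkshire, and 5 adipocyte genes to 13.23 to 13.57 in Shaziling and 13.23 to 13.91 in Yorkshire. Fibroblast sums overlapped between the breeds, as did those of smooth muscle genes, at 12.78 to 13.76 in Shaziling and 12.29 to 13.79 in Yorkshire. Of the 7 lists, only the sum of the 2 tested nerve genes did not overlap, at 10.04 to 10.24 in Shaziling and 9.69 to 9.91 in Yorkshire. Limma called 0 of the 2, and 16.3% of all tested probe sets did not overlap, so this gives no result about nerve. The part of these levels in the members' values was not tested.

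The rest of the pathway showed no called gene either. Of 115 other genes in 6 lists, 70 were on the array and 54 were tested, on the brightest probe set of each. Limma called 0 higher and 0 lower in Shaziling, against 0.0971% and 0.118% of all tested probe sets. With shares this small, 0 is no result particular to these genes. An unadjusted limma p under 0.05 was found for 9 of 54, against 10.4% of all tested probe sets. Of these 9, 5 were among the 17 tested FOXO factors and targets. The breeds did not overlap for 6 of the 54 genes higher and 7 lower in Shaziling, against 7.42% and 8.89% of all tested probe sets. These counts are larger shares than those of all tested probe sets, which was not tested.

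Upstream of PI3-kinase, 6 of 15 receptor and adaptor genes were tested, with a median log2 difference of -0.12. ENPP1, a membrane enzyme that inhibits the insulin receptor, averaged 9.18 ± 0.52 in Shaziling and 10.05 ± 0.77 in Yorkshire (log2, SD, n = 3 each; difference -0.87, SE 0.40, limma adjusted p = 0.497). That difference was -0.57 without Yorkshire replicate 1 and -1.31 without Yorkshire replicate 2. GRB10, an adaptor that restrains the receptor, and PTPN1, a phosphatase that removes its phosphates, had differences of -0.28 (SE 0.39) and 0.14 (SE 0.24). Of 19 genes of PI3-kinases, AKT and their phosphatases, 4 were tested, with a median of -0.16, which was 0.07 without Shaziling replicate 4. They included PIK3C3, the class III kinase of autophagy (-0.29, SE 0.22), PIK3CG, a catalytic subunit best known from leukocytes (-0.20, SE 0.31), and PPP2CA, a catalytic subunit of protein phosphatase 2A (0.16, SE 0.21). A second PPP2CA probe set had -0.55 (SE 0.30).

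Of 31 genes of the mTOR complexes and their regulators, 16 were tested, 13 with negative and 3 with positive differences, where 53.8% of all tested probe sets were negative. Their median was -0.18, with -0.28 without Yorkshire replicate 1 and -0.08 without Yorkshire replicate 2. TBC1D7, the third subunit of the TSC complex that restrains mTOR, had signals of 10.40, 10.44 and 9.58 in Shaziling, against 10.91, 11.20 and 10.88 in Yorkshire. The breeds did not overlap, and the difference was -0.86 (SE 0.26, limma adjusted p = 0.306). LAMTOR1, which anchors the Ragulator complex on lysosomes, had -0.43 (SE 0.20, limma adjusted p = 0.497), also without overlap. SESN1, a sestrin that restrains mTOR, had 0.53 (SE 0.25) for its brightest probe set and 0.54 (SE 0.31) for its other one.

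Downstream in translation, 8 of 15 genes were tested, 4 positive and 4 negative, with a median of -0.04 that ran from -0.21 to 0.17 over the alternatives. RPS6KA3, a kinase of the ERK pathway that also acts on ribosomal protein S6, had 0.75 (SE 0.25, limma adjusted p = 0.339). RPS6, the substrate of S6 kinase itself, had 0.17 (SE 0.11), with signals of 14.69 to 14.81 in Shaziling and 14.57 to 14.62 in Yorkshire, but 0.05 after quantile normalization and 0.04 after cyclic loess. PDCD4, an inhibitor of the helicase eIF4A, had -0.27 (SE 0.18). The deposited signals of the breeds did not overlap in any of these 3 genes, none of which passed the test. They were named for having the smallest p of the 8, which favours genes without overlap. In the whole list, 2 genes higher and 1 lower in Shaziling did not overlap, against 7.42% and 8.89% of all tested probe sets.

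Of 12 genes of glucose metabolism under AKT, 4 were tested, with a median of -0.56. For these 4 it was -0.75 without Shaziling replicate 4 and -0.26 without Shaziling replicate 5. With Present on all 6 arrays required, TBC1D1 dropped out and the median of the remaining 3 genes was -0.09. GYS1, muscle glycogen synthase, had signals of 9.21, 7.97 and 7.66 in Shaziling replicates 4, 5 and 6, against 9.27, 9.07 and 9.60 in Yorkshire replicates 1, 2 and 3 (difference -1.04, SE 0.38, limma adjusted p = 0.381). Shaziling replicate 4 lay within the Yorkshire range and the other 2 below it. TBC1D1, a Rab GTPase-activating protein that AKT and AMPK phosphorylate, had -1.10 (SE 0.44, limma adjusted p = 0.416), -0.53 without Shaziling replicate 5, and its other tested probe set had 0.17 (SE 0.44). RAB10, a GTPase of glucose transporter traffic, had 0.10 (SE 0.15), and its other 2 tested probe sets had 0.21 and -0.05.

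Of 24 FOXO factors and targets, 17 were tested, none of them a FOXO factor. Differences were positive for 13 of the 17, where 46.2% of all tested probe sets were positive. Their median was 0.17, with 0.42 without Shaziling replicate 4 and 0.05 without Shaziling replicate 6. CITED2, a transcriptional coregulator, had signals of 12.14, 12.86 and 12.51 in Shaziling, against 11.25, 11.92 and 10.79 in Yorkshire. Its breeds did not overlap, with a difference of 1.18 (SE 0.30, limma adjusted p = 0.208). PPARGC1A, the coactivator of mitochondrial biogenesis, went the other way, with 9.80, 9.94 and 9.20 in Shaziling, against 10.71, 10.69 and 10.38 in Yorkshire (difference -0.94, SE 0.24, limma adjusted p = 0.230). CCNG2, an unusual cyclin linked to cell cycle arrest, had 0.69 (SE 0.22, limma adjusted p = 0.323). SESN1 stands in this list as well as among the mTOR regulators.

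**Figure D5:**
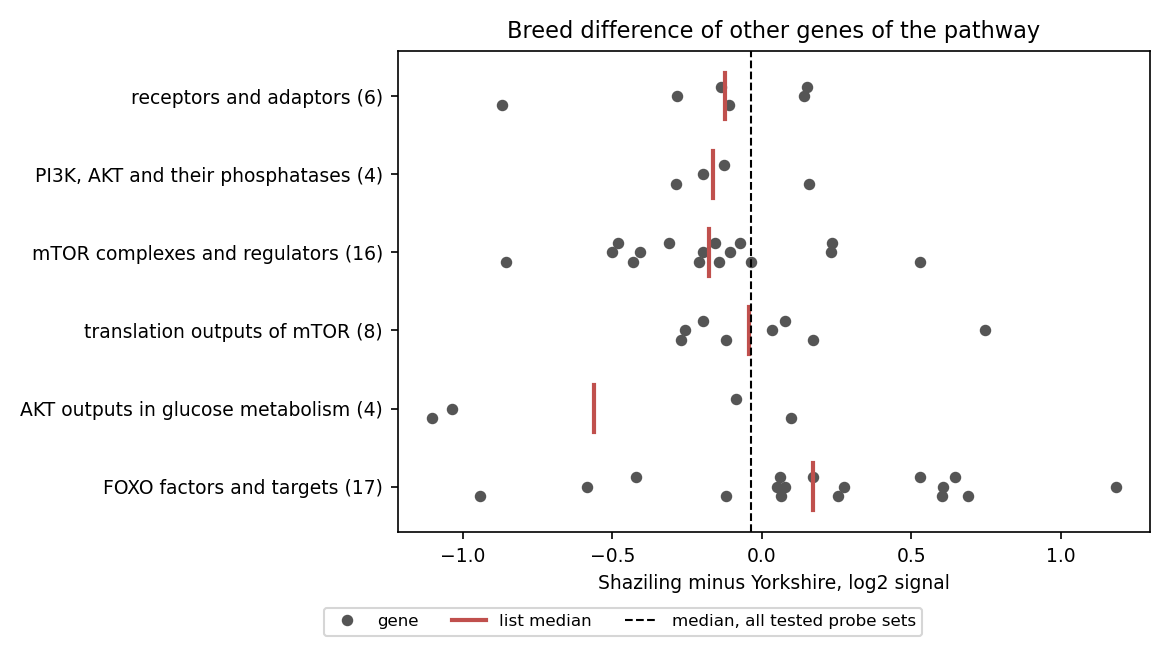
The difference of log2 signal, Shaziling minus Yorkshire, for each tested gene of the 6 pathway lists (grey points, number of genes in brackets), with the list median as a red bar and the median of all tested probe sets as a dashed line. Gene differences run from -1.10 to 1.18, on both sides of the dashed line in every list, and no gene passed the limma threshold.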

How the data were processed

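Total RNA of longissimus dorsi from 6 piglets was hybridised to Affymetrix porcine arrays, 1 per animal. The authors made MAS5 signals, per the submitters' processing notes, with a version that the sources used here do not give. The deposited values are log2 signals between 0 and 15.8 that had been scaled between arrays (2% trimmed mean of 500.1 to 500.2 on the linear scale). Per the file headers, a detection call (Present, Marginal or Absent) stands beside each signal. A second table of the same signals showed 0 differing values. MAS5 sets a signal also for Absent probe sets. Numbers of arrays limit the precision.

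Probe sets were given a gene by the file's symbol, updated through Entrez IDs and a RefSeq table of Sscrofa11.1, used for names alone, or for PIK3R1 by the title. Of 23999 probe sets other than AFFX controls, 8866 had 1 gene name. Coordinates are the file's, whose genome version is not readable.

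After leaving out 124 AFFX control probe sets (64 reporter probe sets stayed in, 2 of them tested), those Present on at least 3 of 6 arrays (14413) were compared as Shaziling minus Yorkshire with limma 3.58.1 in R 4.3.3 (lmFit, eBayes with trend), adjusted by Benjamini-Hochberg over all tested probe sets; the same script was tested on simulated data. In the simulated data, 19.4% of changes of 1 on the log2 scale were recovered and 69.2% of changes of 2, so real differences can be missed. Differences carry moderated SEs. Genes named are every member probe set, up to 3 genes of smallest p per list (brightest probe set of each gene), and the 3 nearest profiles to the member of smallest p. The members and lists were chosen with earlier results of these data known. Alternatives changed the filter, the scaling, the variance model, an offset of 16, the probe set summary or the arrays used. No sequence is shown.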

Additional observations from a re-analysis of the deposited data

How the results depend on the processing

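None of the 6 tested members passed the limma threshold under the alternatives in which they were tested, including each fit without 1 array (0 to 0). With Present on all 6 arrays only 4 were tested, leaving out INSR and FOXO3. The number of probe sets called over the whole array moved more: 31 in the reported fit, 13 with no filter on Present calls, 19 with Present on all 6 arrays, 8 without a variance trend, 364 with array weights, and 0 to 27 on leaving out 1 array (0 without Yorkshire replicate 1 or Shaziling replicate 6, 5 without Shaziling replicate 5, 11 without Yorkshire replicate 2). Pathway genes called were 0, except 3 of 54 with array weights, a fit that called 2.53% of all tested probe sets. These 3 were RPS6KA3, CITED2 and PPARGC1A (limma adjusted p = 0.0418, 0.0199 and 0.0323). Without 1 array, pathway genes called were 0 to 0. Array weights gave Yorkshire replicate 1 a weight of 3.62 and Yorkshire replicate 2 one of 0.483; the cause of the larger count was not tested. Signs turned for FOXO3 (0.13 with array weights; -0.52 to 0.29 without 1 array), for the probe set compared with MTOR (0.0126 with array weights; -0.35 to 0.15 without 1 array), for EIF4EBP1 (-0.20 to 0.63 without 1 array), for PIK3CG (-0.40 to 0.0475 without 1 array) and for PPP2CA (-0.20 as the mean of its probe sets; -0.0043 to 0.30 without 1 array), and the cause was not tested. Quantile normalization and cyclic loess turned no sign of a tested member. No paired analysis was possible because the animals of the breeds came from different families and farms, with no pairs between them. INSR and FOXO3 had calls other than Present on some arrays, where signal over background limits what their probe sets can show.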
